A study of Mus musculus with 6 samples.

Results

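The genes described here encode the enzymes that cut the extracellular matrix, the inhibitors that block them, and the lysyl oxidases that crosslink collagen and elastin. They were picked by symbol, with earlier results of these data known. Every Mmp, Timp, Adamts, Adamtsl, Lox and Loxl gene in the count tables was taken, which gave 56 of 24982 genes. Of these, 43 had 10 or more counts summed over the 6 libraries. Another 6 had fewer, namely Adamts8 with 8 counts, Adamts17, Mmp16 and Mmp3 with 5 each, Adamts19 with 3 and Timp4 with 2. The remaining 7 (Adamts18, Adamts20, Mmp10, Mmp1a, Mmp1b, Mmp20 and Mmp21) were listed at 0 in all 6 libraries. Just inside the limit stood Adamts16 and Mmp25 with 10 counts each, and Adamts8 was the nearest outside it. The libraries were made from liver polyA RNA of male C57BL/6NJ mice, 3 labelled chow (chow 1 to chow 3) and 3 labelled high fat - high sugar (HFHS 1 to HFHS 3, the HFHS group). According to the series text the second group received a high fat diet with sugar water, and both groups were fed for 54 weeks. The series presents the diet as a model in which fatty liver inflammation proceeds to liver cancer. The labels name no genetic change, give no age, and leave unsaid whether the liver pieces held tumour.

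Matrix metalloproteases (Mmp) are zinc enzymes made as inactive precursors, some secreted and some anchored in the cell membrane, which together can cut most proteins of the matrix. Tissue inhibitors of metalloproteases (Timp) bind the active enzymes and block them. The related Adamts enzymes cut proteoglycans, trim procollagen or cut von Willebrand factor, and the Adamts-like proteins share their ancillary domains but have no protease domain. Lysyl oxidases oxidise lysine side chains of collagen and elastin, the first step of crosslinking. In liver fibrosis collagen accumulates, activated stellate cells are a main source of it, and macrophages are a known source of several of the proteases.

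In the high fat high sugar livers most of the measurable genes of these families were higher, among them the macrophage elastase Mmp12, the collagenase Mmp13, the gelatinase Mmp2, the inhibitors Timp2 and Timp3, all 5 tested Adamts enzymes that cut proteoglycans, and the crosslinking enzymes Loxl1, Loxl2 and Loxl3. Of the 35 genes that passed the filter on low counts, 23 rose and 0 fell, by edgeR's quasi-likelihood test with a Benjamini-Hochberg adjusted p under 0.05 over the 12949 genes tested. Over all genes tested, 11.0% rose and 3.61% fell. The count of genes that fell within these families was also 0 at an unadjusted p under 0.05, with DESeq2 and with limma-voom. Their median log2 fold change (high fat high sugar minus chow, used throughout) was 1.83 over the 35 tested genes, against -0.02 over all genes tested. Every HFHS library stood above every chow library in 26 of the 35, a pattern shown by 21.5% of all genes tested. These are whole-liver samples, in which more cells of a type and more RNA per cell cannot be told apart. Among the 23 that rose, 21 had a log2 fold change of at least 1 and 13 of at least 2. Scaling by library size alone, which shifted the median of all genes by 0.27 on the log2 scale, again gave 23 higher and 0 lower in these families, while rises made up 90.6% of the calls over all genes against 75.3% with the scaling used here.

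**Figure D1:**
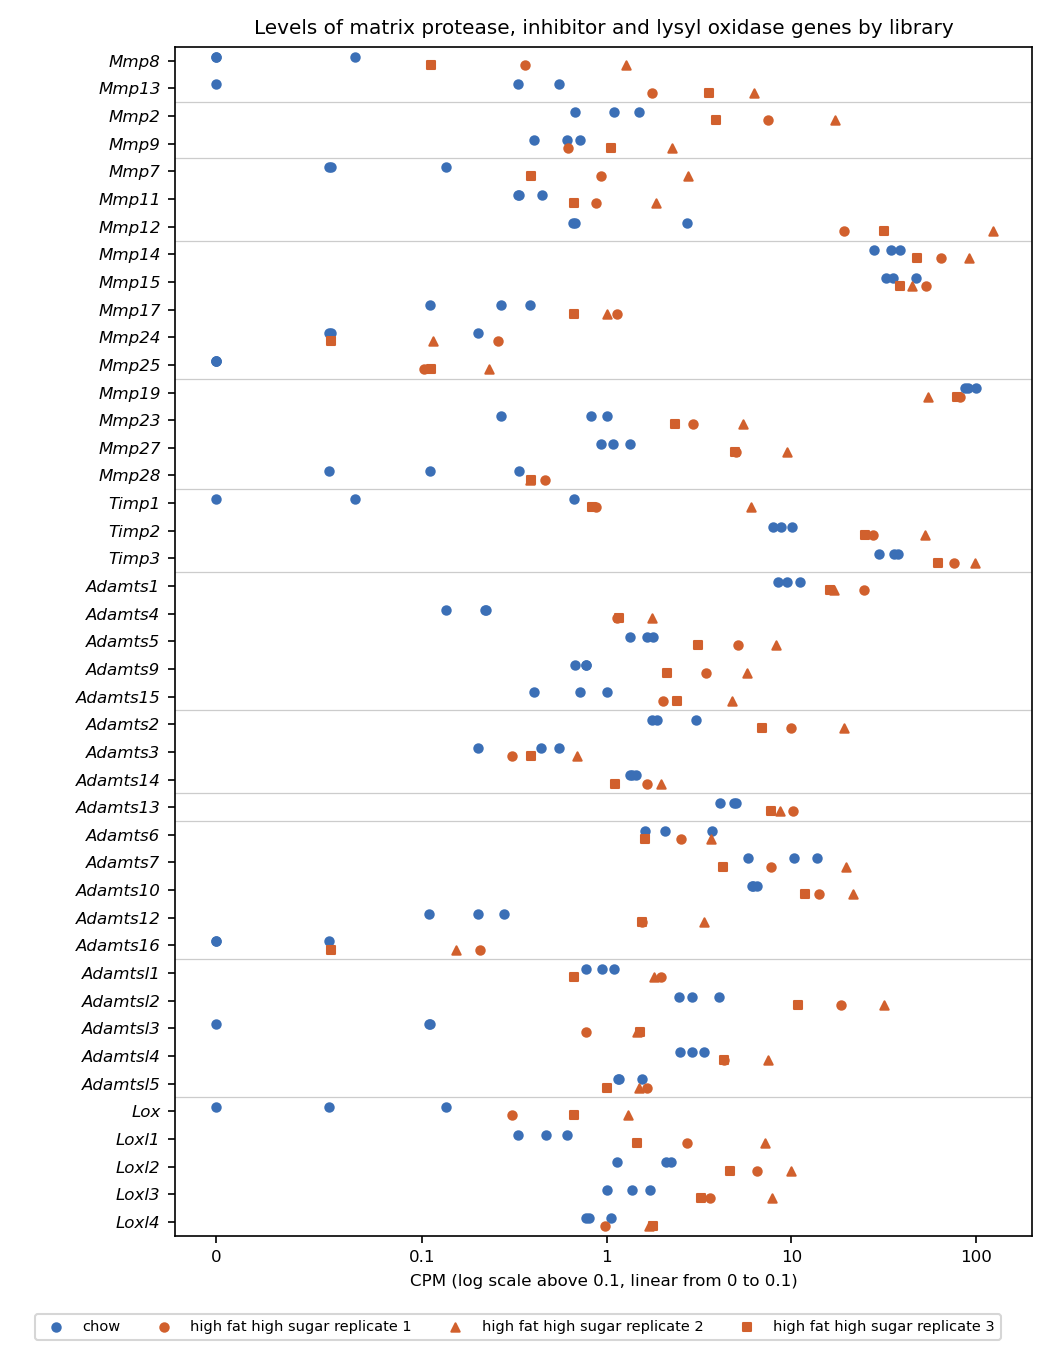
Level of each of the 43 genes with 10 or more summed counts in each of the 6 libraries, in CPM (counts scaled to library size) on an axis that is logarithmic above 0.1 and linear below; lines separate the functional groups. Chow libraries are blue and high fat high sugar libraries orange, with a triangle for HFHS 2, which was the highest library in 19 of the 23 genes that rose.

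Total depth was 16565335 to 20585366 gene counts per library. The 56 genes together took 4641, 4909 and 4091 counts in chow 1 to 3 and 9129, 18448 and 7057 in HFHS 1 to 3, which is 0.0232%, 0.0255% and 0.0247% of gene counts against 0.0482%, 0.0896% and 0.0400%. HFHS 2 stood apart within its group, with correlations across genes of 0.961 and 0.957 with its partners against 0.982 between those partners. It was the highest library in 19 of the 23 genes that rose, HFHS 1 in 3 (Adamts1, Adamts13 and Mmp17) and HFHS 3 in 1 (Adamtsl3), while HFHS 3 was the lowest of its group in 17. The median ratio of the 23 genes to their chow mean was 2.00, 2.88 and 1.53 on the log2 scale in HFHS 1, 2 and 3.

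The number of calls depended on single chow libraries. Without chow 3, edgeR called 0 of these genes, with 27 at an unadjusted p under 0.05 and a smallest adjusted p of 0.0579, and over all genes it called 4 higher and 2 lower. Without chow 2, 5 genes were called (Adamts12, Adamts4, Mmp27, Timp2 and Timp3), with 345 higher over all genes. Without chow 1, 15 were called, and Adamts1, Adamts13, Adamts5, Loxl1, Loxl3, Mmp14, Mmp17 and Mmp2 were not. Over all genes tested, 5.73% rose in that fit. Leaving out HFHS 1, 2 or 3 gave 22, 22 and 25, where 9.02%, 9.42% and 12.6% of all genes tested rose. All 23 kept their direction in each of these fits, and the plot of fold changes with single libraries left out shows their ranges. Limma-voom called 15, losing Adamts15, Adamts5, Loxl1, Loxl3, Mmp12, Mmp13, Mmp17 and Mmp2, and DESeq2 called 25, adding Adamtsl4 and Timp1. The share of all genes tested that rose was 7.66% with limma-voom and 14.0% with DESeq2. With the replicate number as a block edgeR called 19, losing Mmp12, Mmp13, Mmp14 and Mmp17, while 7.42% of all genes tested rose. With no filter on low counts the calls of Mmp12 and Mmp17 were lost, and with the filter of 10 summed counts that of Mmp17.

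**Figure D2:**
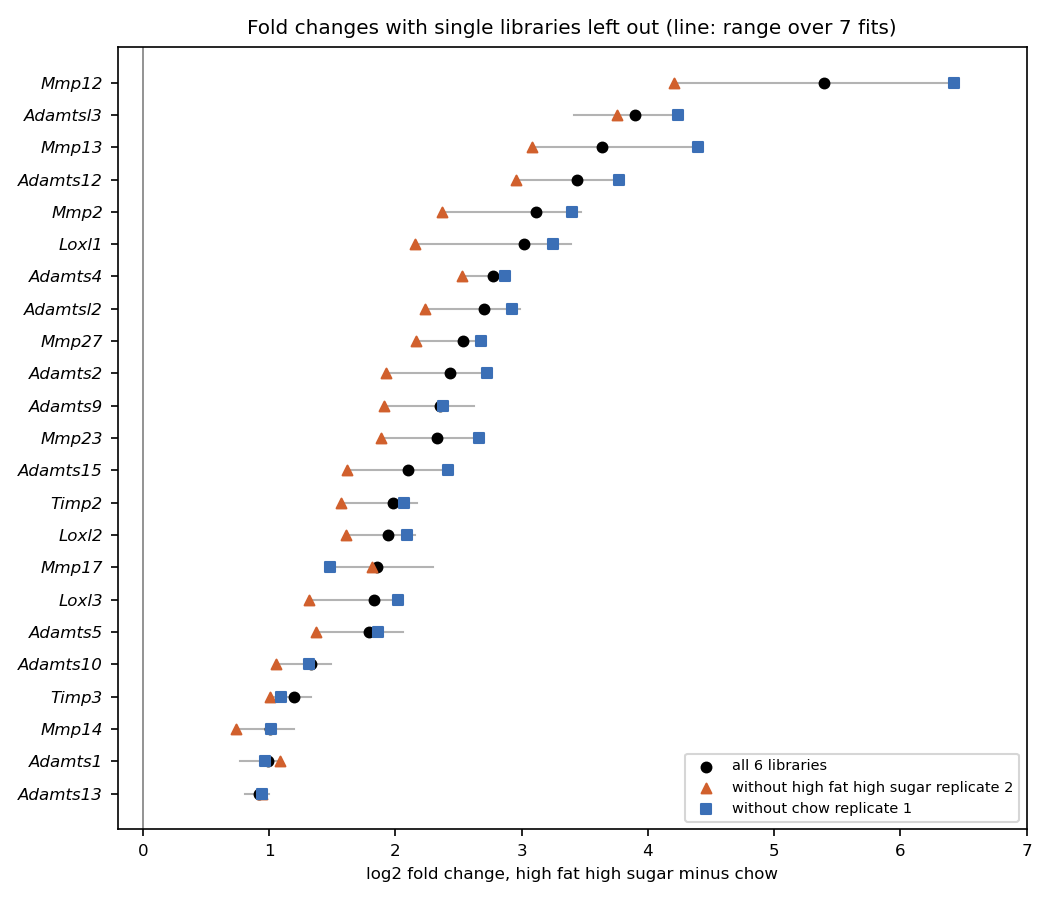
Log2 fold change of the 23 genes that rose, with all 6 libraries (black) and without HFHS 2 (orange triangle) or chow 1 (blue square); each grey line spans the fits with all libraries and with each library left out in turn. Mmp12 ranged most widely, from 4.21 without HFHS 2 to 6.42 without chow 1, and no line crosses 0.

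Mmp12, the macrophage elastase, which cuts elastin, had the largest fold change of the 35 genes tested. Its level was 2.72, 0.660 and 0.673 CPM in chow 1 to 3 and 19.2, 123 and 31.7 CPM in HFHS 1 to 3. The groups did not overlap, with chow 1 well above the other chow libraries and HFHS 2 well above its own partners. The group means were 1.35 ± 1.19 and 58.0 ± 56.7 CPM (SD, n = 3 each), and the log2 fold change was 5.40 ± 1.00 (SE, adjusted p = 0.0218). It was 4.21 without HFHS 2 and 6.42 without chow 1. The call was lost without chow 2 and without chow 3.

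Mmp12 lies in a cluster of 10 Mmp genes on chromosome 9 between 7272514 and 7699585 (GRCm38, GENCODE M21), with no other protein-coding gene inside. Along the chromosome the order is Mmp13, Mmp12, Mmp1b, Mmp3, Mmp1a, Mmp10, Mmp8, Mmp27, Mmp20 and Mmp7. Within this stretch Mmp12, Mmp13 and Mmp27 rose, Mmp7 and Mmp8 were too low for the filter, Mmp3 had 5 counts, and 4 genes (Mmp1b, Mmp1a, Mmp10 and Mmp20) had none. Mmp1a, which GENCODE lists as a polymorphic pseudogene, and Mmp1b are close copies, and how reads that fit both were counted is not stated. The 150 bases before the annotated start are printed for the genes that rose and for Mmp7 and Mmp3, to show what the promoters of neighbours with very different counts hold. They come from RefSeq (GRCm38.p6, all on the plus strand), 5′ to 3′, with the letters TGACTCA or TGAGTCA of an AP-1 motif and the letters TATAAA of a TATA box in capitals. Their places are chr9:7347224-7347373 for the second of the pair of Mmp12 starts, chr9:7272364-7272513 for Mmp13, chr9:7691940-7692089 for the first Mmp7 start, chr9:7445672-7445821 for Mmp3 and chr9:7571246-7571395 for Mmp27.
Mmp12: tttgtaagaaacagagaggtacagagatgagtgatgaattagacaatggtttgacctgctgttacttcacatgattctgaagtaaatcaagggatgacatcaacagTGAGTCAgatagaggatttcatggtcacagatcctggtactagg
Mmp13: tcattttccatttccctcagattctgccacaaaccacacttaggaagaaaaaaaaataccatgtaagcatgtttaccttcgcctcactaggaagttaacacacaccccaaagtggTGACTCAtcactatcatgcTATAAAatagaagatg
Mmp7: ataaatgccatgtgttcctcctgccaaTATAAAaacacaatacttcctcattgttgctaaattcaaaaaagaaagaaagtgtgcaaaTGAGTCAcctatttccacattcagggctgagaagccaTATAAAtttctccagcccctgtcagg
Mmp3: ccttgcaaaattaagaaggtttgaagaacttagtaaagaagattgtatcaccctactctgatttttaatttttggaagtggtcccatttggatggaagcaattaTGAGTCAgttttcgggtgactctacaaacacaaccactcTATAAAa
Mmp27: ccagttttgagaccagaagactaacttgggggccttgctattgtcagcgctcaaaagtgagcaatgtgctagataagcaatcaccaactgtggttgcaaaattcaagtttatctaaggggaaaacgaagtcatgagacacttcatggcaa

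AP-1 is the family of Fos and Jun transcription factors. Its letters begin at base -44 from the start in Mmp12, -35 in Mmp13, -63 in Mmp7 and -46 in Mmp3, and they are in neither strand of the window of Mmp27. The other RefSeq start of Mmp12 and that of Mmp7 have neither the AP-1 nor the TATA letters in their windows. Over the full RefSeq windows, from 250 bases before to 50 after the start, the AP-1 letters occurred on either strand in 7 of the 10 cluster genes (Mmp13, Mmp12, Mmp1b, Mmp3, Mmp1a, Mmp10 and Mmp7) and in 0 of the 27 genes outside the cluster that had an entry. Counted the same way, by gene with a match at any of its starts, they occurred in 5.95% of all genes in the table, and by window in 5.20% of 32851. The TATA letters, read on the gene's strand, were in 8 of the 10 cluster genes, in 3 of the 27 others, in 9.77% of all genes and in 8.32% of all windows. The match counted for Mmp12 begins at base 4 after the start, so the printed stretch does not hold it. Of the 7 cluster genes with AP-1 letters, 3 had 10 or more counts in these livers and 3 had none. Mmp27 and Mmp8 held neither motif. Such a match describes the letters and does not show that a factor binds there.

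**Figure D3:**
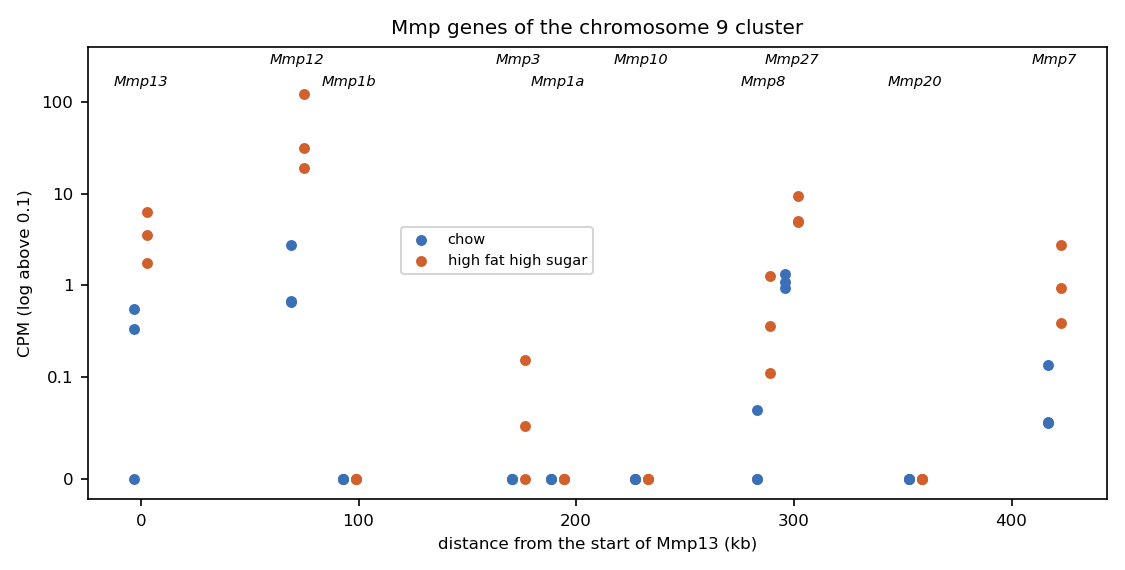
Level in each library (CPM, logarithmic above 0.1) of the 10 Mmp genes of the chromosome 9 cluster, placed by distance of each start from that of Mmp13. Mmp12 reached 123 CPM in HFHS 2, while Mmp1b, Mmp1a, Mmp10 and Mmp20 were at 0 in all 6 libraries.

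Of the 4 genes grouped here as collagenases, the class named for cutting fibrillar collagen, Mmp13 was the one that passed the filter. Mmp13, the main interstitial collagenase of mice, measured 0.556, 0.330 and 0 CPM in chow and 1.76, 6.30 and 3.57 CPM in the HFHS group. All HFHS libraries were above all chow libraries. The means were 0.295 ± 0.280 and 3.88 ± 2.29 CPM (SD, n = 3 each), with a log2 fold change of 3.64 ± 0.79 (SE, adjusted p = 0.0261), and 4.40 without chow 1. Its call was lost without chow 2 or chow 3. Mmp8, the neutrophil collagenase, had 1 count over the chow libraries and 42 over the HFHS libraries, 33 of them in HFHS 2. That is a ratio of 33.9 after scaling, with a 95% exact counting interval of 5.75 to 1369. Its mean in the HFHS group was 0.580 CPM, and 0.237 CPM without HFHS 2. Under the looser filter of 10 summed counts its adjusted p was 0.0584. The summed level of the neutrophil markers was also highest in HFHS 2, as given with the other cell types.

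The gelatinases Mmp2 and Mmp9 cut denatured collagen and the collagen of basement membranes. Mmp2 (chromosome 8, 92827291 to 92853420), made mainly by stromal cells, measured 1.501, 1.10 and 0.673 CPM in chow and 7.49, 17.2 and 3.91 CPM in the HFHS group. The groups were separate. Its mean went from 1.09 ± 0.414 to 9.52 ± 6.87 CPM (SD, n = 3 each), a log2 fold change of 3.11 ± 0.60 (SE, adjusted p = 0.0204). Without HFHS 2 the change was 2.37, and the call did not hold without any 1 of the chow libraries. Mmp9, best known from neutrophils and macrophages, measured 0.612, 0.715 and 0.404 CPM in chow and 0.619, 2.27 and 1.06 CPM in the HFHS group. HFHS 1 lay within the chow range. The log2 fold change of 1.19 ± 0.53 did not pass (adjusted p = 0.170), and it was 0.52 without HFHS 2. Whether the changes of Mmp2 and Mmp9 differ was not tested.

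Among the stromelysins and matrilysin, only Mmp11 passed the filter besides Mmp12. Mmp11, stromelysin 3, measured 0.445, 0.330 and 0.337 CPM in chow and 0.878, 1.84 and 0.670 CPM in the HFHS group. The groups did not overlap, but the log2 fold change of 1.62 ± 0.49 did not pass (adjusted p = 0.0653); it passed without HFHS 3. Mmp7, the matrilysin, which epithelial cells such as bile duct cells can make, had 4 counts over chow and 97 over the HFHS libraries, 72 of them in HFHS 2. That is a ratio of 19.6 after scaling (95% exact counting interval 7.39 to 73.2). Its mean in the HFHS group was 1.36 CPM, and 0.660 CPM without HFHS 2. Under the filter of 10 summed counts it was called, with an adjusted p of 0.0279, where 9.47% of the 15094 genes tested rose. Mmp3, stromelysin 1, had 0 counts in chow and 5 in the other group. After scaling that is 1.34 times a floor of 3 counts over the chow group. This figure leaves out the counting error of the 5 counts, so it is not a lower limit.

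The membrane-type enzymes sit on the cell surface, and Mmp14 among them activates the Mmp2 precursor. Mmp14 (chromosome 14, 54431612 to 54445364) measured 34.7, 27.9 and 38.7 CPM in chow and 64.1, 91.1 and 48.0 CPM in the HFHS group. It was higher in all HFHS libraries, with HFHS 3 nearest to chow. The means were 33.8 ± 5.48 and 67.7 ± 21.8 CPM (SD, n = 3 each) and the log2 fold change 1.01 ± 0.24 (SE, adjusted p = 0.0345). This call was lost without any 1 of chow 1, chow 2, chow 3 or HFHS 1. Mmp17 measured 0.111, 0.385 and 0.269 CPM in chow and 1.14, 0.999 and 0.670 CPM in the HFHS group. Those low levels were separate between diets, with a log2 fold change of 1.86 ± 0.49 (adjusted p = 0.0437), and the call was lost in 5 of the 6 fits that leave out 1 library, all but the one without HFHS 3. Mmp15, another membrane-type enzyme, measured 32.4, 47.4 and 35.5 CPM in chow and 53.7, 45.0 and 38.7 CPM in the other group, overlapping, and did not pass (log2 fold change 0.25 ± 0.18, adjusted p = 0.370). Mmp25 had 0 counts in chow and 10 in the other group, 2.69 times the floor, again without the error of the 10 counts. Mmp24 had 5 and 9 counts.

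Of the other metalloproteases, Mmp27 and Mmp23 rose. Mmp27 (chromosome 9, 7571396 to 7581885), a metalloprotease that stays within the secretory pathway, had the smallest p of all the genes described here. It measured 1.33, 0.935 and 1.08 CPM in chow and 5.01, 9.45 and 4.97 CPM in the HFHS group. Within each diet its libraries lay close together except HFHS 2. The means were 1.12 ± 0.203 and 6.48 ± 2.58 CPM (SD, n = 3 each) and the log2 fold change 2.54 ± 0.34 (SE, adjusted p = 0.0101), and it kept its call without each library except chow 3. Mmp23 measured 1.00, 0.825 and 0.269 CPM in chow and 2.94, 5.46 and 2.34 CPM in the other group. It was separate between diets, with a log2 fold change of 2.33 ± 0.51 (adjusted p = 0.0245), and the call was lost without chow 2 or chow 3. Mmp28, epilysin, had 8 and 26 counts, with all HFHS libraries above chow, and an adjusted p of 0.213 under the filter of 10 summed counts.

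Mmp19, a broad-range enzyme of the stroma and the most abundant Mmp gene per length in every library but HFHS 2, was the 1 tested gene of the families with every HFHS library below every chow library. It measured 89.9, 86.6 and 100.1 CPM in chow and 82.0, 55.1 and 78.7 CPM in the HFHS group. HFHS 1 lay just below the chow range and HFHS 2 furthest below it. The means were 92.2 ± 7.05 and 71.9 ± 14.7 CPM (SD, n = 3 each), and the log2 fold change of -0.36 ± 0.17 did not pass (adjusted p = 0.182). Genes on the opposite strand, Gm47093 and Tmem198b, overlap 28.3% of its exon bases. The strand setting of the counting is not given in the sources used here, so reads of these genes may be among its counts.

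**Figure D4:**
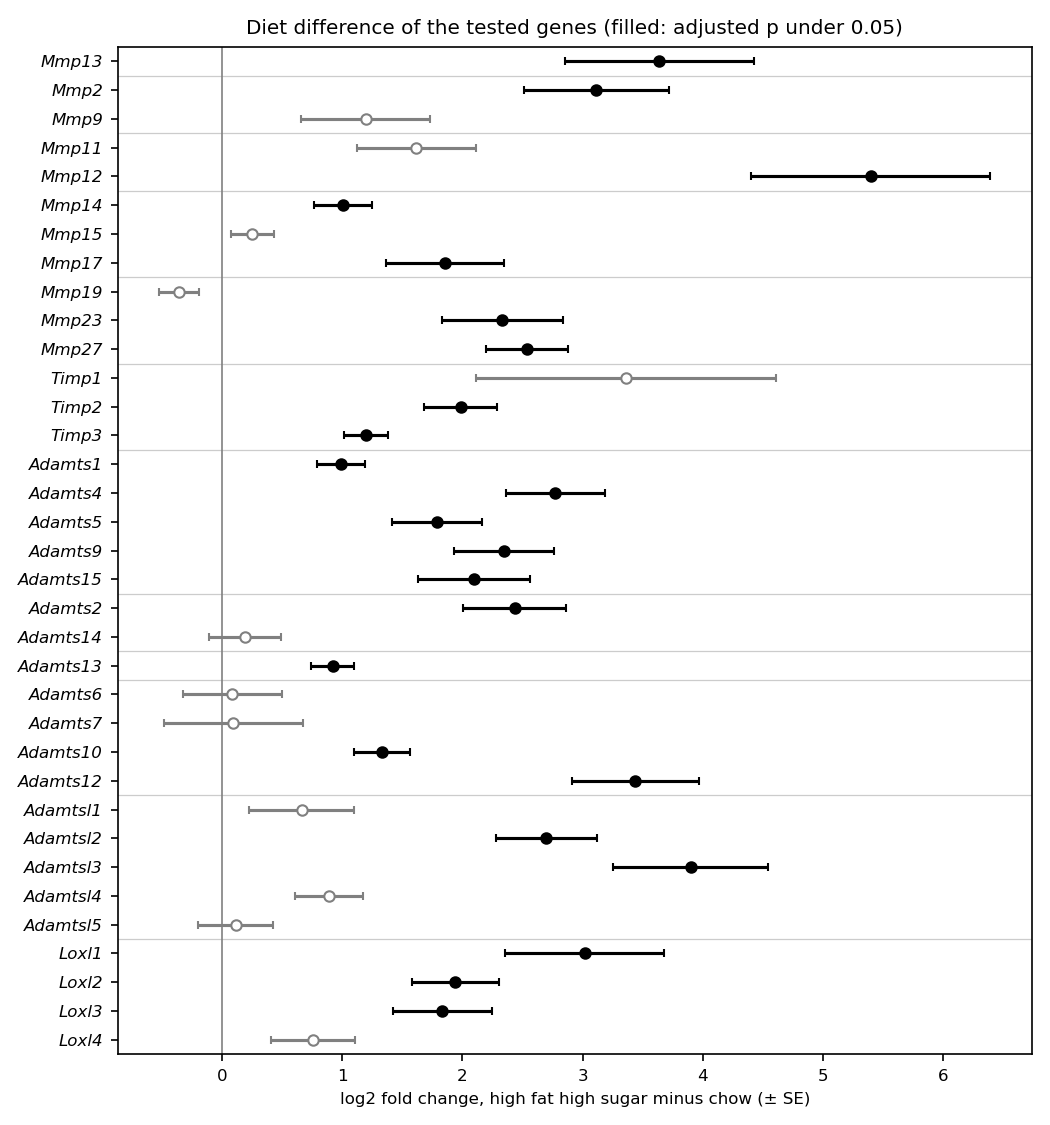
Log2 fold change with its standard error of the 35 tested genes, high fat high sugar minus chow, grouped by function; filled black points have an adjusted p under 0.05 in edgeR. The 23 filled points all lie to the right of 0, and Mmp19 at -0.36 is the 1 point on the left.

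Of the 3 tissue inhibitors tested, 2 rose. Timp2 (chromosome 11, 118301069 to 118355740), which inhibits Mmp2 and also takes part in its activation by Mmp14, measured 10.01, 8.80 and 7.94 CPM in chow and 27.6, 53.0 and 25.1 CPM in the HFHS group. Its chow values were tightly grouped and all HFHS values were well above them. The means were 8.92 ± 1.04 and 35.3 ± 15.4 CPM (SD, n = 3 each) and the log2 fold change 1.99 ± 0.30 (SE, adjusted p = 0.0120). Timp3 (chromosome 10, 86300372 to 86349506), which binds to the matrix and also inhibits Adamts enzymes, measured 29.7, 37.7 and 35.7 CPM in chow and 75.6, 98.7 and 62.0 CPM in the other group. It too was separate between diets, with means of 34.4 ± 4.13 and 78.8 ± 18.5 CPM (SD, n = 3 each) and a log2 fold change of 1.20 ± 0.19 (SE, adjusted p = 0.0119). Syn3, on the opposite strand, overlaps 21.3% of its exon bases. Both Timp2 and Timp3 kept their calls without each library except chow 3.

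Timp1, an inhibitor known to be induced in liver fibrosis, depended on single libraries. Its level was 0.667, 0 and 0.0673 CPM in chow (12, 0 and 1 counts) and 0.878, 6.07 and 0.837 CPM in the HFHS group. All HFHS libraries were above chow, but HFHS 1 and HFHS 3 lay close to chow 1. The means were 0.245 ± 0.367 and 2.60 ± 3.01 CPM (SD, n = 3 each), and the log2 fold change of 3.36 ± 1.25 did not pass (SE, adjusted p = 0.115). It was 6.15 without chow 1 (adjusted p = 0.0852) and 1.75 without HFHS 2 (adjusted p = 0.285). DESeq2 called it, with an adjusted p of 0.0176. Timp4 had 1 count in each group.

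All 5 tested members of the proteoglycan-cleaving Adamts group, the aggrecanases and versicanases, rose, with a median log2 fold change of 2.10. Adamts4, aggrecanase 1, measured 0.222, 0.220 and 0.135 CPM in chow and 1.14, 1.77 and 1.17 CPM in the HFHS group. Both groups were narrow for so low a gene, and the log2 fold change was 2.77 ± 0.41 (SE, adjusted p = 0.0110). Adamts5, aggrecanase 2, measured 1.78, 1.65 and 1.35 CPM in chow and 5.11, 8.26 and 3.13 CPM in the other group, with a log2 fold change of 1.79 ± 0.38 (adjusted p = 0.0225). Adamts9, which cuts versican, measured 0.778, 0.770 and 0.673 CPM against 3.46, 5.76 and 2.12 CPM, a change of 2.35 ± 0.42 (adjusted p = 0.0155). In both genes the chow values were close together and HFHS 2 was highest. Adamts15 measured 1.00, 0.715 and 0.404 CPM in chow and 2.01, 4.77 and 2.40 CPM in the other group, a change of 2.10 ± 0.47 (adjusted p = 0.0264). Adamts1, the most abundant of the group, measured 9.51, 11.2 and 8.41 CPM in chow and 24.7, 16.9 and 16.1 CPM in the other group, a change of 0.99 ± 0.20 (adjusted p = 0.0208). Unlike the others it was highest in HFHS 1. Without chow 2, Adamts4 was the only 1 of these 5 that kept its call, and without chow 1 the calls of Adamts1 and Adamts5 were also lost; without HFHS 1 all 5 held.

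Among the procollagen N-proteinases, which trim the amino end of fibrillar procollagens, Adamts2 rose and Adamts14 did not pass. Adamts2 (chromosome 11, 50602084 to 50807573) measured 3.06, 1.87 and 1.75 CPM in chow and 9.96, 19.3 and 6.92 CPM in the HFHS group. All HFHS libraries lay well above chow, and the means were 2.23 ± 0.723 and 12.0 ± 6.42 CPM (SD, n = 3 each). The log2 fold change was 2.43 ± 0.43 (SE, adjusted p = 0.0161), and the call was lost without chow 2 or chow 3. For Adamts14 the change was 0.19 ± 0.30 (adjusted p = 0.699). Adamts3 was not tested, with 21 counts in chow and 31 in the other group.

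Adamts13, the enzyme that cuts von Willebrand factor and that hepatic stellate cells are known to make, measured 4.89, 5.002 and 4.11 CPM in chow and 10.2, 8.65 and 7.70 CPM in the HFHS group. Each group was narrow and HFHS 1, not HFHS 2, was highest. The means were 4.67 ± 0.489 and 8.84 ± 1.24 CPM (SD, n = 3 each) and the log2 fold change 0.92 ± 0.18 (SE, adjusted p = 0.0189). The call was lost without any 1 of the chow libraries.

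Of the other Adamts genes, Adamts10 and Adamts12 rose while Adamts6 and Adamts7 did not pass. Adamts10, which associates with fibrillin microfibrils, measured 6.23, 6.10 and 6.53 CPM in chow and 14.0, 21.5 and 11.8 CPM in the HFHS group. The chow spread was very small, and the log2 fold change was 1.33 ± 0.23 (SE, adjusted p = 0.0148). Adamts12 measured 0.278, 0.110 and 0.202 CPM in chow, from 10 counts in all, and 1.55, 3.38 and 1.56 CPM in the other group. The groups were far apart, with a log2 fold change of 3.44 ± 0.53 (SE, adjusted p = 0.0118), a call that Adamts12 kept without each library except chow 3; that of Adamts10 was lost without chow 2 as well. Adamts7, which cuts cartilage oligomeric matrix protein, was spread widely in both diets, at 5.84, 10.3 and 13.8 CPM in chow and 7.74, 19.6 and 4.24 CPM in the other group. HFHS 3 was its lowest library and HFHS 2 its highest, so the change of 0.09 ± 0.58 (adjusted p = 0.930) became -0.72 without HFHS 2. Adamts6 had a change of 0.09 ± 0.41 (adjusted p = 0.908). Adamts16 was not tested, with 1 count in chow and 9 in the other group.

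Adamtsl2 and Adamtsl3 rose among the 5 Adamts-like genes. Adamtsl2, which binds fibrillin and the latent TGF-beta binding protein, measured 4.06, 2.47 and 2.89 CPM in chow and 18.5, 31.8 and 10.9 CPM in the HFHS group. The lowest HFHS library was well above the highest chow library, and the log2 fold change was 2.70 ± 0.42 (SE, adjusted p = 0.0132). Adamtsl3 measured 0.111, 0.110 and 0 CPM in chow and 0.774, 1.46 and 1.51 CPM in the other group, from 4 and 80 counts. It was the 1 gene that rose with its highest level in HFHS 3, with a log2 fold change of 3.90 ± 0.64 (SE, adjusted p = 0.0136). Both calls were lost without chow 2 or chow 3. Adamtsl4 was separate between diets, at 2.50, 2.91 and 3.37 CPM against 4.34, 7.49 and 4.30 CPM, but did not pass (0.89 ± 0.28, adjusted p = 0.0737); DESeq2 called it. The changes of Adamtsl1 (0.66 ± 0.44, adjusted p = 0.336) and Adamtsl5 (0.11 ± 0.31, adjusted p = 0.835) did not pass either.

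Of the 4 lysyl oxidases tested, 3 rose. Loxl1, which is needed for elastic fibres, measured 0.612, 0.330 and 0.471 CPM in chow and 2.74, 7.23 and 1.45 CPM in the HFHS group. The groups were separate, with a log2 fold change of 3.02 ± 0.66 (SE, adjusted p = 0.0263), which was 2.15 without HFHS 2. Loxl2 (chromosome 14, 69609068 to 69695834), which crosslinks collagen, measured 2.22, 2.09 and 1.14 CPM in chow and 6.504, 9.92 and 4.63 CPM in the other group. Its means were 1.82 ± 0.588 and 7.02 ± 2.68 CPM (SD, n = 3 each) and its log2 fold change 1.94 ± 0.36 (SE, adjusted p = 0.0171). All HFHS libraries were above all chow libraries in both genes. Loxl3 measured 1.72, 1.37 and 1.01 CPM in chow and 3.61, 7.80 and 3.24 CPM in the other group, a change of 1.83 ± 0.41 (adjusted p = 0.0269), with 11.6% of its exon bases overlapped by Htra2 on the opposite strand. Without chow 2 or chow 3 these 3 calls were lost, and without chow 1 those of Loxl1 and Loxl3.

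Lox, the founding lysyl oxidase, was too low for the main filter, at 0, 0.0550 and 0.135 CPM in chow and 0.310, 1.31 and 0.670 CPM in the HFHS group. All HFHS libraries were above chow, with 3 and 52 counts in all, a ratio of 14.0 after scaling (95% exact counting interval 4.52 to 70.0). Its mean in the HFHS group was 0.762 CPM, and 0.490 CPM without HFHS 2. With the filter of 10 summed counts edgeR called it (adjusted p = 0.0389). Loxl4 measured 1.06, 0.770 and 0.808 CPM in chow and 0.981, 1.69 and 1.79 CPM in the other group. HFHS 1 lay inside the chow range, and the change of 0.76 ± 0.35 did not pass (adjusted p = 0.180). The 5 genes together came to 5.62, 4.62 and 3.57 CPM in chow and 14.1, 27.9 and 11.8 CPM in the HFHS group.

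Reads of the Mmp family were spread over more genes in the HFHS group. Mmp14, Mmp15 and Mmp19 together held 94.8%, 96.7% and 97.5% of Mmp reads in chow and 82.9%, 52.7% and 76.8% in the HFHS group. The share of Mmp12 was 1.65% (95% Wilson interval 1.25 to 2.17), 0.394% (0.226 to 0.688) and 0.377% (0.205 to 0.692) in chow. It was 7.95% (7.20 to 8.76), 33.9% (33.0 to 34.9) and 14.7% (13.6 to 15.9) in the HFHS group, with every HFHS share above every chow share. These intervals hold counting error alone and do not measure the difference between diets. Those of the HFHS libraries also missed one another, and that of chow 1 missed those of chow 2 and chow 3. Within the Timp reads Timp3 kept the largest share in every library, 73.5%, 81.1% and 81.7% in chow and 72.6%, 62.5% and 70.5% in the other group.

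**Figure D5:**
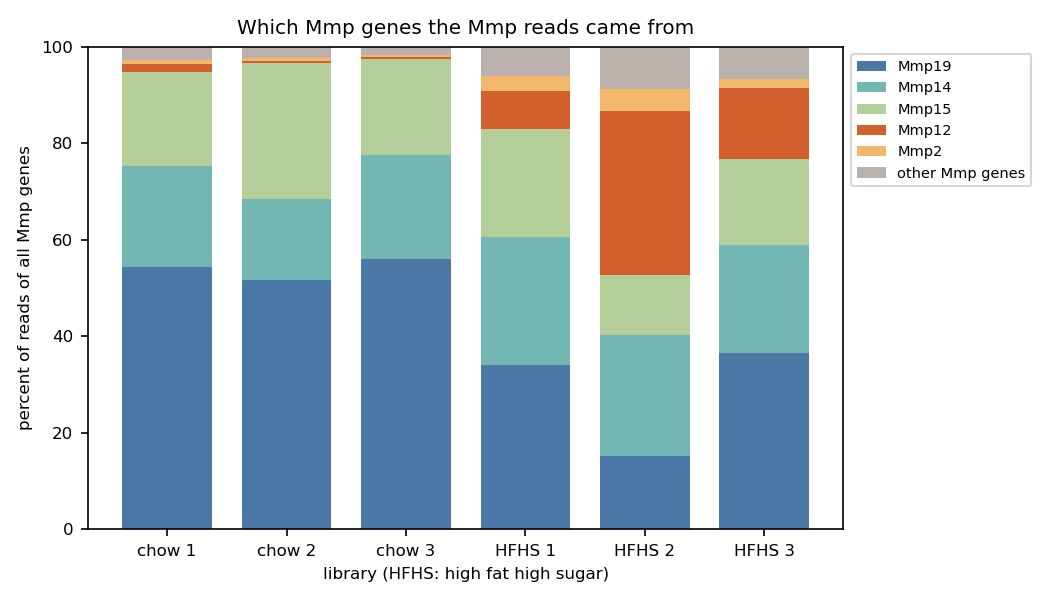
Share of all Mmp reads taken by single Mmp genes in each library, in percent of reads, with HFHS for high fat high sugar. Mmp12 held 0.377% to 1.65% of Mmp reads in chow and between 7.95% and 33.9% in the HFHS libraries.

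Per length of the joined exons, in RPKM (CPM divided by the exon length in kilobases), the order of the genes differed between the diets. In chow Mmp19 led with 26.1 ± 1.99 RPKM (SD, n = 3), followed by Mmp15 at 7.12, Mmp14 at 5.66, Timp3 at 4.22, Timp2 at 2.29 and Adamts1 at 1.83. By group mean the HFHS order was Mmp19 at 20.4 ± 4.16 RPKM, followed by Mmp14 at 11.4 ± 3.66, Timp3 at 9.67 ± 2.28, Timp2 at 9.05 ± 3.96, Mmp15 at 8.48 ± 1.39 and Mmp12 at 8.01 ± 7.84. From Mmp14 to Mmp12 these means lay within 1 SD of their neighbours. The libraries differed in that order. In HFHS 2 Mmp12 came first at 17.0 RPKM, ahead of Mmp19 at 15.6 and Mmp14 at 15.3, while Mmp12 was in place 7 in HFHS 1 and place 6 in HFHS 3. In chow Mmp12 was in place 17, 27 and 27. By the longest transcript Mmp19 was first in every library but HFHS 2, where it was in place 4, behind Mmp14, Mmp12 and Timp3. Group means by that length put Mmp14 in place 2 in both diets. In chow it was at 10.4 RPKM against 7.48 for Mmp15, and in the HFHS group at 20.9 against 21.1 for Mmp19. Mmp12 was then in place 4 in the HFHS group, so part of the order depends on the length used.

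The summed level of the Mmp genes differed less between the diets than that of the Timp genes. The Mmp-to-Timp ratio of summed RPKM was 5.70, 5.77 and 6.59 in chow and 3.16, 2.30 and 3.25 in the HFHS group, with no overlap. By the longest transcript it was 4.78, 4.40 and 5.11 against 2.80, 2.43 and 2.91. Most of this difference lay with Mmp19: without that gene the ratio was 2.06, 2.21 and 2.23 against 1.82, 1.82 and 1.77, and the ratio of reads, 1.87, 1.74 and 1.80 against 1.53, 1.95 and 1.55, overlapped. These ratios are of RNA levels and carry no test.

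Other genes of the pathway were read from lists chosen with earlier results of these data known, and their counts stand beside the 11.0% of all genes tested that rose and the 3.61% that fell. Of 15 tested activators and other regulators of matrix proteases, 4 rose and 1 fell, with a median log2 fold change of -0.24. At an unadjusted p under 0.05, 3 were lower, as with DESeq2, and limma-voom called 1 higher. Hpse, the heparanase, rose by 1.12 ± 0.21 (adjusted p = 0.0170), and Serpinf2, the plasmin inhibitor, fell by 0.61 ± 0.15 on the log2 scale (adjusted p = 0.0358). Of 15 enzymes of collagen processing and hydroxylation, 7 rose and 0 fell (0 at an unadjusted p under 0.05 and 0 with DESeq2), with a median of 0.82, and Pcolce, the procollagen C-proteinase enhancer, rose by 1.55 ± 0.21 (adjusted p = 0.0101). Bmp1, the C-proteinase itself, had a change of -0.19 ± 0.16 (adjusted p = 0.453). Of 11 ADAM genes, membrane proteases related to the Adamts family, 6 rose and 0 fell (1 at an unadjusted p under 0.05, and 0 with DESeq2), with a median of 1.13. Adam19 rose by 1.81 ± 0.33 (adjusted p = 0.0161) while Adam9 had a change of -0.32 ± 0.12 (adjusted p = 0.112). Of 14 matrix substrates, 12 rose and 0 fell (0 at an unadjusted p under 0.05 and 0 with DESeq2), with a median of 2.13. The smallest p was that of Col4a1, a basement membrane collagen, which rose by 2.04 ± 0.21 (adjusted p = 0.00754). Larger rises included that of the fibrillar collagen Col1a1, named here after its value was seen, at 4.51 ± 0.89 (adjusted p = 0.0248). Fn1, fibronectin, had a change of -0.07 ± 0.19 (adjusted p = 0.836). The rises in the 4 lists numbered 0, 6, 1 and 8 without chow 1, then 0, 4, 0 and 7 without chow 2, and 0 in each without chow 3, where 6, 9, 9 and 13 had an unadjusted p under 0.05. For the ADAM genes they numbered 3 without HFHS 1 and 4 without HFHS 2.

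Markers of several liver cell types moved with these genes; as above, 11.0% of all genes tested rose. Of 11 macrophage markers 11 rose, and their summed level ran from 237 to 338 CPM in chow and from 692 to 1136 CPM in the HFHS group. Of 11 stellate cell and myofibroblast markers 9 rose, from 196 to 248 CPM in chow to between 497 and 802 CPM. Of 8 bile duct cell markers 6 rose, from 39.9 to 59.0 CPM in chow to between 185 and 306 CPM. Of 9 endothelial markers 5 rose, from 200 to 242 CPM in chow to between 307 and 381 CPM. HFHS 2 was the highest library in the first 3 of these sums, as in most of the proteases, and chow 1, the highest chow library for Mmp12 and Timp1, was the highest chow library for macrophage and stellate markers. Of 5 tested neutrophil markers 0 rose in edgeR, with 3 at an unadjusted p under 0.05 and 3 called by DESeq2. Their summed level, over all 11 markers, was 10.8, 3.63 and 2.56 CPM in chow and 13.5, 40.5 and 13.4 CPM in the other group, with Ly6g at 0 in chow. The smallest p upward in edgeR was that of S100a8 (2.55 ± 0.72, adjusted p = 0.0571). In the other direction it was that of Ltf (-0.92 ± 0.79, adjusted p = 0.466). Of 8 lymphocyte markers 1 rose, from 4.71 to 6.84 CPM in chow to between 8.15 and 16.1 CPM. That count, near the share over all genes, was 2 without chow 1 and 0 without chow 2. The 7 hepatocyte markers found in the tables had 0 called changes in edgeR (3 lower at an unadjusted p under 0.05, and 3 with DESeq2), with a median log2 fold change of -0.70, and their sum was lowest in HFHS 2, at 36118 CPM against 69946 to 91070 in its partners and 93406 to 114673 in chow. Alb held most of the hepatocyte sum, with group means of 78898 CPM in chow and 48496 CPM in the HFHS group. Ass1, 1 of the 3 hepatocyte markers lower at an unadjusted p under 0.05, was low throughout, with means of 1.37 and 0.394 CPM. Without chow 3 the counts of rises in all these lists were 0, with 11 macrophage, 9 stellate and 6 bile duct markers at an unadjusted p under 0.05. Without chow 2 the counts for those 3 lists were 4, 3 and 3, and without chow 1 they were 9, 6 and 3. Endothelial rises numbered 3 without chow 1 and 3 without HFHS 1. The part of these cell types in the rise of the proteases, inhibitors and lysyl oxidases was not tested.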

How the data were processed

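Liver polyA RNA of 3 chow and 3 high fat high sugar libraries was sequenced from a library kit that marks strand, per the labels' protocols. Reads were aligned with STAR to mm10, per the submitters' processing notes, which name no version. The sources used here do not give the counting program, gene annotation or strand setting. The deposited values are whole-number read counts per gene, not normalised by the authors, 1 table per library. Rows for reads outside genes (7.74% to 10.6% of counts) and for reads that fitted several genes (0.615% to 0.862%) were left out.

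Counts were fitted over all genes with edgeR 4.0.16 (R 4.3.3, limma 3.58.1): filterByExpr with a minimum count of 10, TMM scaling, robust quasi-likelihood F test of diet without covariates, Benjamini-Hochberg adjustment over the 12949 genes left of 17877 with a count, and a threshold of 0.05. The SE is the log2 fold change divided by the square root of F. CPM and RPKM were derived from deposited counts, using TMM-scaled library sizes and GENCODE M21 exon lengths of GRCm38, the assembly of mm10. For genes with few counts, ratios carry exact binomial intervals at 95%. Genes without chow counts are set against a floor of 3 counts over the chow group (3 counts are 0.115 to 0.202 CPM in 1 library). The intervals take in counting error alone, as reads are not separate molecules. The floor takes in no error of the HFHS counts.

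Groups and replicate numbers come from the titles. The labels do not say that each library came from its own animal. The p-values set the diet difference against the spread between these libraries, and may not carry over to animals. Table names differ in stem between diets and no batch is labelled, so handling and diet cannot be told apart. Libraries of one diet differed beyond sampling noise (chi-square per gene at least 23.5). The replicate numbers were not taken as pairs in the main fit and were tried as a block. Whether same-numbered libraries are pairs could not be settled with 3 libraries a group.

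Members and lists were chosen with earlier results of these data known. Full values are given for every member past the threshold and for 12 members named whatever their p. In each list of other pathway genes, the tested gene with the smallest p in each direction is named. Cell type lists are given as counts and sums, with those genes named for the neutrophil markers alone. The count fits were tested on simulated data. Alternatives were other scalings, other filters, DESeq2 1.42.0, limma-voom, no robust estimation, a replicate block and each library left out in turn. RefSeq promoter windows were matched by symbol for 37 of the 56 members, and all 56 matched GENCODE M21.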

Additional observations from a re-analysis of the deposited data

How the results depend on the processing

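All 23 genes that rose kept their direction under the 15 alternatives. They numbered 23 with the RLE, upper-quartile and library-size scalings and without robust estimation, 24 with no filter on low counts, 24 with the filter of 10 summed counts, 25 with DESeq2 and 15 with limma-voom. Over all genes tested, 10.9%, 12.7% and 14.9% rose with those scalings, in that order, and 11.2% without robust estimation. The share was 8.17% with no filter, 9.47% with the filter of 10 summed counts, 14.0% with DESeq2 and 7.66% with limma-voom. A fit with the replicate block gave 19, with 961 higher and 282 lower over all genes. Same-numbered libraries had deviation correlations of -0.25, -0.17 and 0.03, and differently numbered ones -0.08 to 0.23. With 3 libraries a group these correlations cannot settle whether the numbers mark pairs. Leaving out 1 library gave 0 to 25 members higher, 4 to 1664 genes higher and 2 to 772 lower, in each case lowest without chow 3 and highest without HFHS 3. Over all genes 200 fell with library-size scaling and 974 with DESeq2. Members that fell numbered 0 in all settings. Adamts6 (-0.25 to 0.50), Adamts7 (-0.72 to 0.46) and Adamtsl5 (-0.0275 to 0.28) changed sign on leaving out 1 library, and Adamts7 also under the block (-0.0683). The cause was not tested. With 3 libraries a group, and under 50 chow counts in 9 of the 23 genes, low levels carry wide error.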
